A study of Mus musculus with 40 samples.

Results

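Offspring kept on a high-fat diet throughout life were compared with offspring kept on a low-fat diet throughout, which gives the combined effect of maternal and post-weaning exposure on the adult brain. The animals were male C57BL/6J mice, an inbred strain in which littermates are genetically identical. In the HF_HF group the dams ate the high-fat diet before mating, through pregnancy and until weaning at day 21, and their sons then ate the same diet. In the LF_LF group dams and sons ate the low-fat diet over the same periods. A group name gives the diet of the dam first and that of the son after it. Coconut oil was the main fat in both diets. The animals were killed at 9 weeks of age, and whole-brain RNA was hybridised to Illumina MouseRef-8 v2.0 arrays, with 1 array per animal. The labels put 10 arrays in HF_HF and 10 in LF_LF, 20 of the 40 arrays of the series, and these animals came from 8 of its 12 breeding cages. No cage supplied both groups, so cage, litter and dam cannot be told apart from the diets, and neither can exposure before birth, during suckling and after weaning. Animals were separate biological replicates, although littermates shared a cage.

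A high-fat diet reaches the brain by several routes. Neurons of the hypothalamus read leptin, insulin and nutrients and release peptides that raise or lower appetite. Dopamine acting on neurons of the striatum gives food its reward value, and glia and the cells of blood vessels respond to circulating lipids and inflammatory signals. Maternal diet acts while these circuits are being laid down.

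The difference between the diets was clear on the body. At 3 weeks, the end of suckling, HF_HF animals weighed 9.38 to 13.36 g (median 11.59 g) and LF_LF animals 8.33 to 10.79 g (median 9.885 g). The ranges overlapped, but 8 of 10 HF_HF animals were heavier than the heaviest LF_LF animal. The means were 11.6 ± 1.25 g and 9.57 ± 0.937 g (SD, n = 10 each), a difference of 2.04 g (SE 0.493) or 21.3% (two-sided permutation p = 0.0009, adjusted p = 0.0012 over the 4 body measures). In the groups with a single exposure the means were 10.9 g in HF_LF and 9.18 g in LF_HF.

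The second weight in the labels separated the groups completely. It ran from 28.44 to 34.06 g (median 30.045 g) in HF_HF and from 23.38 to 26.83 g (median 24.64 g) in LF_LF, so that no animal of one group reached the other. The mean was 5.83 g (SE 0.643) or 23.6% higher in HF_HF (permutation p = 2e-05, the smallest that 100000 resamples can give, adjusted p = 8e-05). Means were 24.7 g in LF_LF, 23.7 g in HF_LF, 30.3 g in LF_HF and 30.5 g in HF_HF. The higher means were thus in the groups that ate the high-fat diet after weaning. The second weight is labelled as a weaning weight, yet every value exceeds those at 3 weeks, and the label gives no age. The methods describe a weighing when these animals were killed at 9 weeks, but nothing ties it to this label.

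Body length was measured in 8 HF_HF animals, at 101 to 104 mm (median 102.5 mm), and in 10 LF_LF animals, at 97 to 101 mm (median 100 mm). The groups met at 101 mm, and 7 of 8 HF_HF animals were longer than every LF_LF animal. The mean difference was 2.92 mm or 2.93% (SE 0.565, two-sided exact permutation p = 0.000183, adjusted p = 0.000366). Mean length was 98.0 mm in HF_LF and 102.3 mm in LF_HF. Fasting blood glucose ran from 129 to 271 mg/dl (median 178 mg/dl) in HF_HF and from 167 to 261 mg/dl (median 196 mg/dl) in LF_LF. These ranges overlapped almost entirely, and the means, 188 and 206 mg/dl, differed by -17.6 mg/dl (SE 17.4, permutation adjusted p = 0.328). Mean glucose was 194 mg/dl in HF_LF and 222 mg/dl in LF_HF.

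Animals of the same breeding cage may share a dam, so whole cages were also permuted, 4 HF_HF cages against 4 LF_LF cages. None of the 4 measures passed after adjustment in this test, whose smallest possible p over 70 splits was 0.0286. The second weight reached that limit (difference of cage means 5.59 g, exact p = 0.0286), and its HF_HF cage means, 29.3 to 31.8 g, all lay above the LF_LF cage means, 24.0 to 25.4 g. The 3-week weight (1.87 g) and length (2.54 mm) each gave an exact p = 0.0571.

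**Figure D1:**
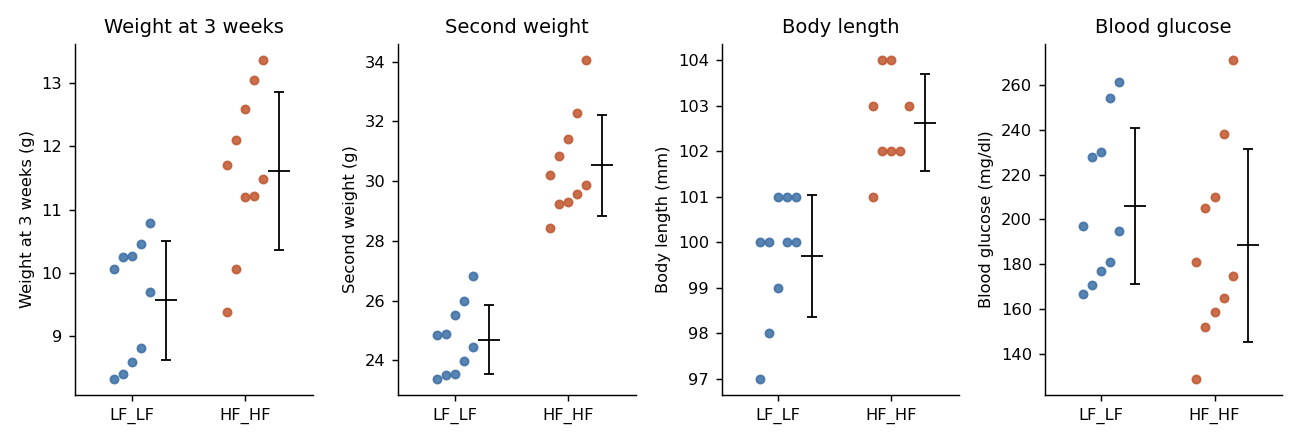
Weight at 3 weeks (g), second weight (g), body length (mm) and blood glucose (mg/dl) of each LF_LF and HF_HF animal. Each point is an animal, and the bar to its right is the group mean with 1 SD. The second weights of the groups do not overlap, at 28.44 g or more in HF_HF and 26.83 g or less in LF_LF, whereas the blood glucose values do.

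In the brain, no transcript separated the groups. A probe was taken as measured where it was brighter, in at least 20 of the 40 arrays, than nearly all probes for olfactory, vomeronasal and taste receptors. Of 14381 such probes, 0 were called in limma at an adjusted p under 0.05 (0%), and the smallest adjusted p rounded to 1. The plain t-test gave 0 calls, and so did a regularised t-test. At an unadjusted p under 0.05 there were 527 probes (3.66%), of which 291 were higher in HF_HF (2.02% of probes) and 236 lower (1.64%). There was no probe for which the highest animal of one group lay below the lowest of the other (0 of 14381, or 0%). No gene below passed the test over all probes, and every adjusted p rounded to 1, so the values that follow describe these 20 brains. Most genes named were picked for a small p in these same arrays. Counts of animals beyond the LF_LF mean partly follow from that choice and add no support.

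Estimated differences in intensity were small for most probes. The intervals below count animals of the same cage as independent, and no background was subtracted here, so they do not bound transcript levels. The log2 difference between HF_HF and LF_LF had a median of 0.01 over all probes, with 53.6% higher in HF_HF, and a median SE of 0.0768. Its 95% interval lay within 1.2-fold in either direction for 9575 probes (66.6%) and within 1.5-fold for 13641 (94.9%). The estimate itself passed 1.2-fold for 266 probes, 71 higher and 195 lower in HF_HF, and 1.5-fold for 19 probes, 1 higher and 18 lower. Only Pmch passed 2-fold.

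Differences between single brains were larger than those between the groups. Correlations between arrays ran from 0.922 to 0.994, and their median was 0.981 both within and between groups. Along the first principal component, with 58.8% of the variance, the groups overlapped (scores of -20.5 to 35.8 in HF_HF and -29.4 to 39 in LF_LF). In 3 of the 20 arrays the mean correlation with the others was low: LF_LF replicates 3 and 6 and HF_HF replicate 5. Markers of neurons (Syt1, Rbfox3, Tubb3), oligodendrocytes, astrocytes and microglia were above background, whereas none of 6 pituitary markers passed that filter. Nor did the neuronal genes Snap25 and Nefl, or 4 of 5 cerebellar markers. The Purkinje cell gene Pcp2 was above background in 1 of the 20 brains, in LF_LF, and Gabra6, Cbln3 and Calb1 in 0. Cbln1, the cerebellar marker that passed, had mean log2 intensities of 9.05 ± 0.57 in HF_HF and 9.60 ± 0.60 in LF_LF. The difference was -0.54 (unadjusted p = 0.0357), and the brain region that gave this signal was not tested.

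**Figure D2:**
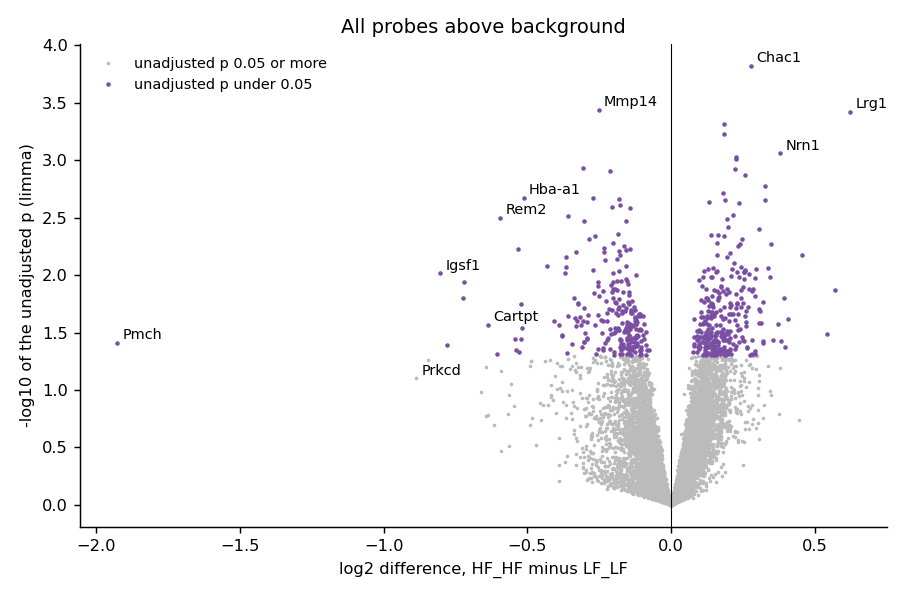
Log2 difference between HF_HF and LF_LF (x axis) against -log10 of the unadjusted limma p (y axis) for the 14381 probes above background. The 527 probes at an unadjusted p under 0.05 are coloured, none of the 14381 passed after adjustment, and the 19 estimates past 1.5-fold lie mostly on the left, lower in HF_HF.

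Among the genes higher in HF_HF the smallest p values belonged to Chac1 and Lrg1, and among those lower to Mmp14. Chac1 degrades glutathione and is induced by amino acid shortage and endoplasmic reticulum stress. Its log2 intensity ran from 9.48 to 9.88 (median 9.64) in HF_HF and from 9.22 to 9.57 (median 9.36) in LF_LF. The ranges overlapped only between 9.48 and 9.57, and all 10 HF_HF animals lay above the LF_LF mean. The difference was 0.28 (SE 0.061, 1.21-fold, unadjusted p = 0.000151), the smallest p of all probes.

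Lrg1, a secreted glycoprotein of the acute phase that acts on blood vessels, had the largest estimate on the higher side. Levels were 6.85 to 8.45 (median 7.42) in HF_HF and 6.54 to 7.33 (median 6.79) in LF_LF, a difference of 0.62 (SE 0.15, 1.54-fold, unadjusted p = 0.000379). The highest brain, at 8.45, was the single HF_HF animal of cage 10. The other 3 HF_HF cages had means of 7.18 to 7.57, all above the LF_LF cage means of 6.65 to 7.05.

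Nrn1 encodes neuritin, a protein released by active neurons that promotes growth of dendrites and synapses. It measured 12.04 to 12.82 (median 12.56) in HF_HF and 11.66 to 12.45 (median 12.15) in LF_LF, and 9 of 10 HF_HF animals exceeded the LF_LF mean. The difference was 0.38 (SE 0.099, 1.3-fold, unadjusted p = 0.000866). Fam107a, a stress-responsive protein that binds actin, was 0.33 higher (SE 0.092, unadjusted p = 0.00166), in 10 of 10 animals above the LF_LF mean.

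The other leading genes on the higher side were housekeeping or signalling genes with differences of 0.18 to 0.26. They were Zfp62 (0.18), a zinc finger protein, Dck (0.19), the kinase that salvages deoxycytidine, the RNA helicase gene Ddx50 (0.23), the promoter-binding protein gene Gpbp1 (0.23), the stress kinase gene Map3k6 (0.22) and Asap2 (0.26), which regulates the GTPase Arf. Further probes of Zfp62 (0.15) and Gpbp1 (0.14) had the same sign. Those of Ddx50 (0.14 and -0.05) and Asap2 (-0.02) did not all do so.

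On the lower side the smallest p belonged to Mmp14, a membrane-bound protease that cuts the extracellular matrix. Its log2 intensity ran from 7.74 to 8.08 (median 7.93) in HF_HF and from 8.04 to 8.39 (median 8.15) in LF_LF. Every HF_HF animal lay below the LF_LF mean, and the ranges shared only 8.04 to 8.08. The difference was -0.25 (SE 0.06, 0.84-fold, unadjusted p = 0.000361).

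Hba-a1, an alpha chain of haemoglobin, measured 11.97 to 13.11 (median 12.29) in HF_HF and 12.33 to 13.47 (median 12.97) in LF_LF, with 9 of 10 HF_HF animals below the LF_LF mean. The difference was -0.51 (SE 0.15, 0.701-fold, unadjusted p = 0.00211). Cygb, which encodes cytoglobin, a haem protein of fibroblasts and some neurons, differed by -0.31 (SE 0.082, unadjusted p = 0.00116).

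Dbp, a transcription factor driven directly by the circadian clock, measured 11.31 to 11.96 (median 11.48) in HF_HF and 11.45 to 11.99 (median 11.81) in LF_LF. The ranges overlapped widely, but 9 of 10 HF_HF animals were below the LF_LF mean (difference -0.27, SE 0.077, unadjusted p = 0.00213). The exception was HF_HF replicate 9, at 11.96.

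The remaining leading genes on the lower side differed by -0.14 to -0.36. They were Bud13 (-0.21), a splicing factor, Eif3f (-0.14), a subunit of a translation initiation factor, Gtf2ird1 (-0.18), a transcription factor, H2-Ke6 (-0.21), a mitochondrial dehydrogenase named for its place in the major histocompatibility complex, Szrd1 (-0.18) and Plppr1 (-0.36), a neuronal membrane protein that promotes filopodia. All 3 further probes of Plppr1 were negative (-0.23, -0.23 and -0.14). For Gtf2ird1 they were 0.06 and -0.08.

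Leading genes were also read in the groups with a single exposure, HF_LF and LF_HF. Both groups were compared with the same LF_LF arrays. The genes were picked for a small p between HF_HF and LF_LF, a choice that favours intermediate values in other groups. The values are therefore set side by side only. Chac1 differed from LF_LF by 0.05 in HF_LF, 0.14 in LF_HF and 0.28 in HF_HF. Lrg1 differed by 0.13, 0.36 and 0.62 in the same order, and Nrn1 by 0.17, 0.17 and 0.38. Both single exposures gave estimates on the side of HF_HF for these genes, each smaller than the combined one, which the choice of genes favours. Mmp14 differed by -0.18 in HF_LF, -0.11 in LF_HF and -0.25 in HF_HF. Hba-a1 differed by -0.18, -0.02 and -0.51. Dbp differed by 0.04 in HF_LF but by -0.24 in LF_HF and -0.27 in HF_HF, so its lower means were in the groups that ate the high-fat diet after weaning. Neither the time of day at which each animal was killed, on which clock-driven genes such as Dbp depend, nor whether brains were perfused, which bears on haemoglobin genes, is given in the sources used here. Map3k6 had its largest estimate in HF_LF (0.27), with 0.14 in LF_HF and 0.22 in HF_HF.

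**Figure D3:**
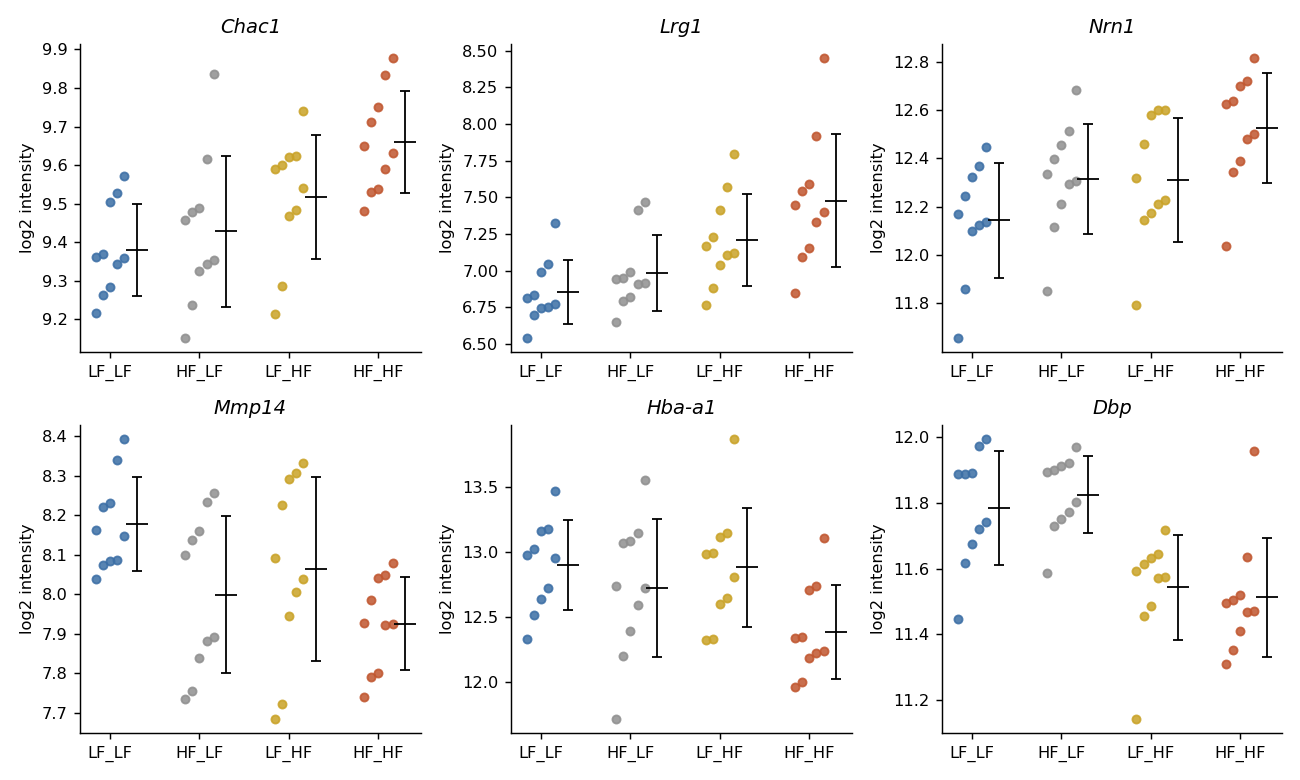
Log2 intensity of Chac1, Lrg1, Nrn1, Mmp14, Hba-a1 and Dbp in each animal of the 4 groups, named by maternal and then post-weaning diet. Each point is an animal, and the bar is the group mean with 1 SD (n = 10). Mean Chac1 levels were 9.38 in LF_LF, 9.43 in HF_LF, 9.52 in LF_HF and 9.66 in HF_HF, and HF_HF and LF_LF overlap for every gene shown.

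Appetite peptides of the hypothalamus varied widely between animals. Of 23 genes listed, 15 were measured, and 4 were higher and 11 lower in HF_HF (median log2 difference -0.07, against 0.00 over the 9945 genes measured, and 0.0351 with only probes above background in all 20 arrays). Pmch, the precursor of melanin-concentrating hormone, which drives feeding, had the largest estimate in the dataset. It ran from 6.36 to 12.37 (median 6.63) in HF_HF and from 6.54 to 12.26 (median 10.21) in LF_LF. In both groups some brains were near background and others were among the brightest, so the ranges overlapped almost entirely. Levels of 7.16 or less were found in 7 HF_HF animals and in 2 LF_LF animals. The mean difference was -1.93 (SE 0.88, 0.263-fold, unadjusted p = 0.0389), with a 95% interval from -3.77 to -0.09, and it was -1.29 without cage 21.

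Cartpt, which encodes an appetite-suppressing peptide, measured 7.76 to 10.13 (median 8.48) in HF_HF and 8.60 to 10.18 (median 9.07) in LF_LF. Of the 10 HF_HF animals 9 were below the LF_LF mean (difference -0.64, SE 0.27, unadjusted p = 0.027), and its other probe differed by -0.49. Hcrt, the orexin precursor of wake-promoting neurons next to those that make Pmch, differed by -0.56 (SE 0.54), and by -0.13 without cage 8 and -0.23 without cage 21. Npy, the main appetite-raising peptide of the arcuate nucleus and also made by cortical interneurons, differed by 0.19 (SE 0.17). Its receptor gene Npy1r was 0.25 higher (SE 0.089, unadjusted p = 0.00945), with all 10 HF_HF animals above the LF_LF mean. The leptin receptor gene Lepr and its targets Pomc and Agrp were not among the probes compared.

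Genes that mark deep regions of the forebrain had the most negative medians of all 38 lists. Neurons of the thalamus relay sensory signals to the cortex, and 13 of 14 measured thalamic genes were lower in HF_HF (median -0.45, mean level 8.88 ± 0.68 against 9.26 ± 0.45). Within HF_HF the mean thalamic level fell in separate ranges, 8.20 to 8.87 in 7 brains and 9.59 to 9.93 in 3, while LF_LF ran from 8.31 to 9.86. Prkcd, a kinase of thalamic relay neurons, differed by -0.89 (SE 0.48, unadjusted p = 0.0791), with 7.44 to 10.79 (median 8.24) in HF_HF and 7.71 to 10.94 (median 10.06) in LF_LF, and by -0.53 without cage 21. Rgs16, a regulator of G-protein signalling, differed by -0.49 and Slc17a6, the vesicular glutamate transporter of thalamic and other subcortical neurons, by -0.44. None of the 14 had an unadjusted p under 0.05.

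Medium spiny neurons of the striatum receive dopamine and carry its receptors. Of 15 measured striatal genes 13 were lower in HF_HF (median -0.42), 2 at an unadjusted p under 0.05 (against 1.64% of all probes). The mean level was 8.63 to 10.08 in HF_HF (9.24 ± 0.48) and 8.75 to 10.22 in LF_LF (9.65 ± 0.51), with 8 of 10 HF_HF animals below the LF_LF mean. Drd2, the dopamine receptor of the indirect pathway, differed by -0.52 (SE 0.23, unadjusted p = 0.0362). Gng7, the G-protein subunit that couples striatal receptors to adenylyl cyclase, differed by -0.52 (SE 0.22, unadjusted p = 0.0286). Rarb, a retinoic acid receptor of the striatum, differed by -0.42, and its other probe by -0.39. The dopamine receptor gene Drd1 (-0.59), the dopamine-regulated phosphatase inhibitor gene Ppp1r1b (-0.64) and Rgs9 (-0.80) were on the same side. Gnal (0.00) and Foxp1 (0.05) were not.

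Of 8 measured genes of the dopamine and serotonin systems of the midbrain and hindbrain, 6 were lower (median -0.06). Slc6a3, the dopamine transporter, differed by -0.59 with an SE of 0.60, Ddc, which makes both amines, by -0.36, and the serotonin receptor gene Htr1a by 0.12. Without cage 4, Slc6a3 differed by -0.26, and without cage 21 Htr1a differed by 0.01. Opioid and cannabinoid genes were split, 3 higher and 6 lower (median -0.01). Within them Oprk1, the kappa opioid receptor, differed by -0.16 (SE 0.062, unadjusted p = 0.0194) and Pnoc by 0.05. Mean log2 intensities of Oprk1 (6.52 in HF_HF, 6.68 in LF_LF) and Pnoc (6.42 in HF_HF, 6.36 in LF_LF) lay near background. Pdyn, which encodes the Oprk1 ligand dynorphin and is a striatal gene, differed by -0.44.

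Myelin and choroid plexus genes lay on the same side. Oligodendrocytes wrap axons in myelin. Of 19 measured genes 17 were lower in HF_HF (median -0.18), 1 at an unadjusted p under 0.05 (against 1.64% of all probes). Mean levels were 9.50 to 10.53 in HF_HF (10.02 ± 0.30) and 9.78 to 10.45 in LF_LF (10.19 ± 0.23), a wide overlap. Pllp, a membrane protein of myelin, differed by -0.30 (SE 0.12, unadjusted p = 0.0195), Mag, an adhesion molecule between myelin and axon, by -0.33, and Gpr17, a receptor of precursor cells, by -0.15. The choroid plexus secretes cerebrospinal fluid, and all 9 of its measured genes were lower (median -0.24), although levels ran from 6.88 to 8.99 in HF_HF and from 6.84 to 9.17 in LF_LF. In mean level 6 HF_HF animals lay above the LF_LF mean and 4 below it. Clic6 differed by -0.47 (SE 0.44), Aqp1 by -0.29 and Sostdc1 by -0.32, and none of the 9 had an unadjusted p under 0.05. Further probes of Aqp1 differed by 0.0007 and -0.05. Without cage 6, Aqp1 differed by -0.12 and Sostdc1 by -0.13, and without cage 21 Clic6 differed by -0.28.

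In RNA from bulk brain, fewer cells of a type and less RNA per cell cannot be told apart. Thalamic, striatal, oligodendrocyte and choroid plexus lists all had medians on the lower side, and the part that the makeup of each tissue sample had in these differences was not tested. Relative to LF_LF, the thalamic median was -0.01 in HF_LF and -0.24 in LF_HF, and the striatal median -0.11 and -0.04. The choroid plexus median was -0.33 in HF_LF and -0.48 in LF_HF, both larger in size than in HF_HF (-0.24). Without cage 21 the thalamic median of HF_HF against LF_LF was -0.21. The choroid plexus genes had a median of -0.45 when cage 8 was left out, -0.12 when cage 6 was and -0.15 when cage 21 was. For oligodendrocyte genes it was -0.12 without cage 10 and -0.32 over cage means.

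**Figure D4:**
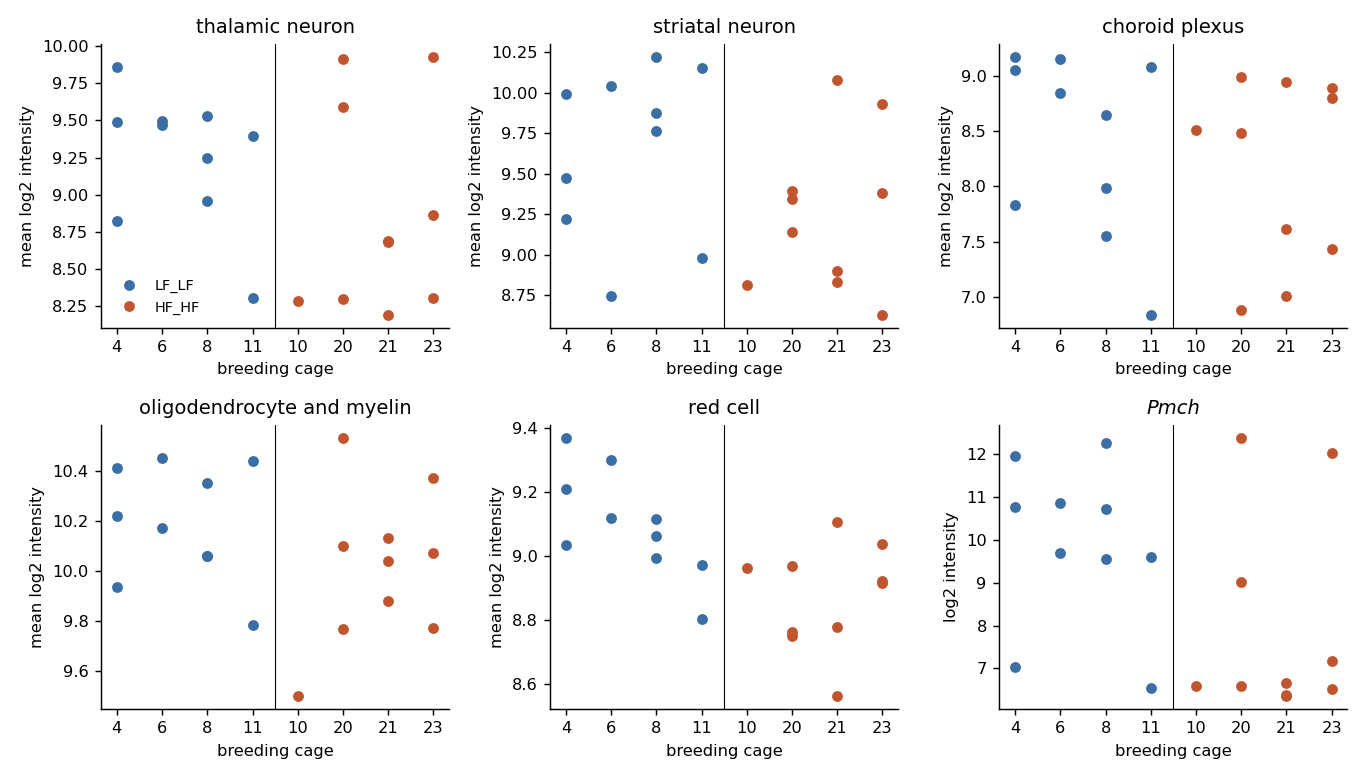
Mean log2 intensity of the thalamic, striatal, choroid plexus, oligodendrocyte and red cell lists, and log2 intensity of Pmch, in each animal by breeding cage (4 LF_LF cages left of the line, 4 HF_HF cages right of it). Each point is an animal. The groups overlap in every panel, and Pmch runs from 6.36 to 12.37 within HF_HF.

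Blood and vessel genes did not move as one. Of 5 red cell genes measured 4 were lower in HF_HF (median -0.21), and 9 of 10 animals were below the LF_LF mean. The median was -0.12 without cage 21. Besides Hba-a1 the list held Alas2, the first enzyme of haem synthesis in red cells (-0.21, SE 0.11), and Fech, its last enzyme (0.05, other probe -0.02). The 22 endothelial and blood-brain barrier genes were split evenly, 11 higher and 11 lower (median -0.00). Ly6c1, a surface protein of capillary endothelium, was 0.24 higher (SE 0.077, unadjusted p = 0.0054), in all 10 HF_HF animals above the LF_LF mean. Itm2a (-0.19) and Slc2a1, the glucose transporter of the barrier (-0.10), were on the other side.

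High-fat feeding is known to raise inflammatory genes in some tissues. The acute phase gene Lrg1 is described above (0.62, SE 0.15) and belonged to none of the lists that follow. Microglia and complement genes, the resident immune cells and their opsonins, were higher for 14 of 19 and lower for 5 (median 0.05), with 0 at an unadjusted p under 0.05. C1qc, a subunit of the first complement component, differed by 0.19 (SE 0.11), C4b by -0.17 and Siglech by 0.13 (other probe -0.03). Interferon and MHC class I genes were 9 higher and 10 lower (median -0.00), with B2m, the light chain of class I molecules, at 0.09, H2-T23 at 0.14 and the peptide transporter gene Tap2 at -0.14. The neutrophil and acute phase list had 5 measured members, 3 higher and 2 lower (median 0.09). Hp, which encodes haptoglobin, differed by 0.09 (SE 0.041, unadjusted p = 0.0367), S100a8 by 0.18 (SE 0.24) and S100a9 by 0.10 (SE 0.15). Hp lay near background (mean log2 intensity 6.47 in HF_HF and 6.38 in LF_LF). Astrocyte genes were 10 higher and 8 lower (median 0.01), with Gfap, the filament protein of reactive astrocytes, at 0.17 (SE 0.13), Gja1 at -0.10 and Agt at -0.45.

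Genes of neuronal activity pointed both ways. Immediate early genes, transcribed within minutes of firing, were 7 higher and 11 lower (median -0.04). Egr2 differed by -0.34 (SE 0.20) and Sik1 by -0.12, whereas Klf4, also counted as early, was 0.20 higher (SE 0.066, unadjusted p = 0.00692). The other probe of Klf4 differed by 0.05 (SE 0.062). Sik1 lay near background (mean log2 intensity 6.40 in HF_HF and 6.52 in LF_LF). The slower activity-dependent genes were 9 higher and 6 lower (median 0.04, lowest -0.56, highest 0.38). Of these, 3 higher and 1 lower had an unadjusted p under 0.05 (against 2.02% and 1.64% of all probes). Besides Nrn1 they were Bdnf, the neurotrophin of active synapses (0.26, SE 0.11, unadjusted p = 0.028, with its other probe at 0.23), Nptx2, which clusters glutamate receptors (0.35, SE 0.16), and, on the lower side, Gadd45g (-0.27, SE 0.10, unadjusted p = 0.0143).

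Glutamate and GABA are the main excitatory and inhibitory transmitters. Of their 17 measured receptor genes 12 were higher (median 0.04), 2 at an unadjusted p under 0.05 (against 2.02% of all probes). Their mean level was 8.29 to 8.40 in HF_HF (8.34 ± 0.05) and 8.11 to 8.39 in LF_LF (8.29 ± 0.09). All 10 HF_HF animals lay above the LF_LF mean, though 7 of 10 LF_LF animals, at 8.29 to 8.39, lay within the HF_HF range. The other 3 LF_LF animals, at 8.11 to 8.21, were replicates 3, 5 and 6, of which 3 and 6 stand apart from the other arrays. The median was 0.04 without the arrays that stand apart and 0.01 with array weights. Gria2, the subunit that makes AMPA receptors impermeable to calcium, measured 12.11 to 12.74 (median 12.28) in HF_HF and 11.61 to 12.30 (median 12.09) in LF_LF. The difference was 0.24 (SE 0.084, unadjusted p = 0.00852), and its other probe differed by 0.23. Gria3, another AMPA subunit, differed by 0.17 (other probes 0.11 and 0.20), and Grm8, a metabotropic receptor, by 0.15 (SE 0.071, unadjusted p = 0.0432).

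Interneuron genes, which mark inhibitory cells, were evenly split, 6 higher and 6 lower (median 0.00, of the other sign after cyclic loess), and 2 of them went opposite ways. Vip, the peptide of a class of cortical interneurons and of the circadian pacemaker, measured 8.63 to 10.81 (median 10.10) in HF_HF and 8.66 to 10.17 (median 9.39) in LF_LF. It was 0.54 higher in HF_HF (SE 0.24, unadjusted p = 0.0322), and Cck, another cortical peptide, was 0.28 higher (SE 0.14). Slc32a1, the vesicular GABA transporter of all inhibitory neurons, the striatal ones included, differed by -0.31 (SE 0.13, unadjusted p = 0.0273).

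The timing of meals can influence circadian clocks and stress hormones. Core clock genes were 7 higher and 7 lower (median 0.01), with Per3 at 0.13 (SE 0.069), Clock at 0.12 and Per1 at -0.12. Nr1d1, a repressor within the clock, differed by -0.09 (SE 0.09). Clock output genes were 3 higher and 5 lower (median -0.06), and next to Dbp held Ciart (-0.21, SE 0.12, other probe -0.23) and Usp2 (0.15). Ciart differed by -0.08 without cage 8 and Usp2 by 0.05 without cage 4, and the list median was -0.01 without cage 6. The median of this list was 0.09 in HF_LF and -0.16 in LF_HF relative to LF_LF. Glucocorticoid-responsive genes were 11 higher and 8 lower (median 0.02), with Map3k6 and Sult1a1, a sulphotransferase (0.28, SE 0.14, unadjusted p = 0.0484), on one side and Ddit4, an inhibitor of the mTOR kinase (-0.29, SE 0.12, unadjusted p = 0.0258), on the other. Their median was 0.12 in HF_LF and -0.03 in LF_HF.

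Insulin and IGF signalling genes were 12 higher and 12 lower (median 0.00, of the other sign after cyclic loess). Ide, the protease that degrades insulin, measured 8.56 to 9.98 (median 9.24) in HF_HF and 8.46 to 9.32 (median 8.88) in LF_LF. It was 0.46 higher (SE 0.15, 1.37-fold, unadjusted p = 0.00661), in 9 of 10 animals above the LF_LF mean, and differed from LF_LF by 0.42 in HF_LF and 0.40 in LF_HF. Igfbp4, a carrier of insulin-like growth factors, differed by 0.28 and the transcription factor gene Foxo1 by -0.18.

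Fatty acid oxidation and PPAR genes were 10 higher and 17 lower (median -0.03). Of the higher ones 2 had an unadjusted p under 0.05 (against 2.02% of all probes). Pparg, the lipid-activated receptor that drives fat storage, differed by 0.25 (SE 0.11, unadjusted p = 0.0346). Ppargc1a, the coactivator of mitochondrial biogenesis, differed by 0.18 (SE 0.075, unadjusted p = 0.0243), with all 10 HF_HF animals above the LF_LF mean, and the brain fatty acid binding protein gene Fabp7 by -0.22. Cholesterol synthesis and transport genes were 11 higher and 15 lower (median -0.02), 0 at an unadjusted p under 0.05. Lss, which closes the sterol rings, differed by -0.04 (SE 0.095), Msmo1 (listed on the array as Sc4mol), which removes methyl groups from them, by 0.05 (SE 0.066) and Srebf1, a regulator of lipid synthesis, by -0.04 (SE 0.10). Insig2 differed by 0.10 (other probe 0.003), Apoe, the lipid carrier of the brain, by -0.11 and Hsd17b7 by 0.06. Genes of RXR, RAR and thyroid hormone signalling were 9 higher and 10 lower (median -0.00). They held Rarb and Rxrg (-0.38, SE 0.22), which are also striatal genes, and Cebpb, which differed by 0.10 (SE 0.083).

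Genes of energy metabolism differed little. The citrate cycle had 9 genes higher and 14 lower (median -0.01), with the succinate dehydrogenase subunit gene Sdhc at -0.18 (SE 0.079, unadjusted p = 0.0302), Pdha1 at 0.11 and Idh3a at -0.08. Glycolysis genes were 9 higher and 9 lower (median 0.00, of the other sign after cyclic loess), with Ldha, lactate dehydrogenase, at 0.18 and Aldoa at 0.07. Respiratory complex I genes were 17 higher and 19 lower (median -0.01), with Ndufv1 and Ndufa13 both at -0.07 and Ndufv3 at -0.13. For complexes II to V, 15 were higher and 28 lower (median -0.03). Uqcrfs1 differed by 0.09 (SE 0.04, unadjusted p = 0.0338) and the ATP synthase inhibitor gene Atpif1 by -0.09. Uqcrfs1 lay near background (mean log2 intensity 6.49 in HF_HF and 6.40 in LF_LF). Antioxidant genes were 9 higher and 22 lower (median -0.03), with Gpx1 at -0.14, Gpx3 at -0.23 and the metallothionein gene Mt3 at 0.17.

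The machinery that makes, folds and removes proteins had medians of -0.01 to 0.01. Cytosolic ribosome genes were 24 higher and 31 lower (median -0.01), with Rps15a at -0.10, Rpl27a at 0.12 (other probe -0.03) and Rpl23 at 0.11. Mitochondrial ribosome genes were 37 higher and 32 lower (median 0.01), with Mrpl15 at 0.08, Mrpl49 at -0.09 and Mrpl38 at -0.10. Proteasome genes were 22 higher and 17 lower (median 0.01), with Psmd1 at 0.20, Psme4 at 0.16 and Psmc2 at -0.08. Heat shock genes were 11 higher and 11 lower (median -0.01), among them the co-chaperone gene Bag3 at -0.20 (SE 0.077, unadjusted p = 0.0141), Chordc1 at 0.12 and Dnaja1 at 0.07. The unfolded protein response, the pathway that induces Chac1, was 12 higher and 11 lower (median 0.01), with Hsp90b1 at 0.19 (SE 0.13), Syvn1 at -0.13 and Pdia3 at 0.10.

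Nuclear functions were also near zero. Carriers and pores of nuclear transport divided into 17 higher and 12 lower (median 0.00), with Ran, the GTPase that sets the direction of transport, at 0.14 (SE 0.057, unadjusted p = 0.0211), the export receptor gene Cse1l at 0.16 (unadjusted p = 0.0272) and Ipo13 at -0.13 (unadjusted p = 0.0464). Splicing factors of the SR class and their partners were 13 higher and 6 lower (median 0.04), with Luc7l3 at 0.17 (unadjusted p = 0.0474), Luc7l at -0.16 and Rsrc2 at 0.15. The other probe of Luc7l differed by 0.0009. Chromatin enzymes, which write and read DNA methylation and histone marks, were 26 higher and 15 lower (median 0.01), with Uhrf1, which guides maintenance of DNA methylation, at -0.16 (SE 0.069, unadjusted p = 0.0299), Kdm6b at -0.20 and Mbd1 at 0.15. Further probes of Mbd1 differed by 0.002 and 0.03.

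Imprinted genes are expressed from 1 parental allele and many control growth. Of 22 measured 19 were lower in HF_HF (median -0.06), 1 at an unadjusted p under 0.05 (against 1.64% of all probes). Usp29, from the paternally expressed Peg3 domain, differed by -0.25 (SE 0.12, unadjusted p = 0.0435), Ndn, of the Prader-Willi region, by -0.19 (SE 0.11) and the growth factor gene Igf2 by -0.22 (SE 0.13). The mean level was 9.48 to 10.24 in HF_HF and 9.60 to 10.03 in LF_LF, so LF_LF lay wholly within the range of HF_HF. The HF_HF animal with the highest imprinted level, replicate 6 (10.24), was also highest for the hypothalamic (9.05) and the dopamine and serotonin (8.25) lists. The lowest, replicate 8 (9.48), was lowest for the hypothalamic (7.46) and thalamic (8.20) lists but not for the dopamine and serotonin list (7.31). In LF_LF replicate 9 was lowest for the imprinted (9.60), hypothalamic (7.57) and thalamic (8.31) lists. LF_LF replicate 2, highest for the imprinted list (10.03), was not highest for the hypothalamic, thalamic or dopamine and serotonin lists. The part of these regions in the imprinted median was not tested. Relative to LF_LF the median was -0.01 in HF_LF and -0.08 in LF_HF.

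**Figure D5:**
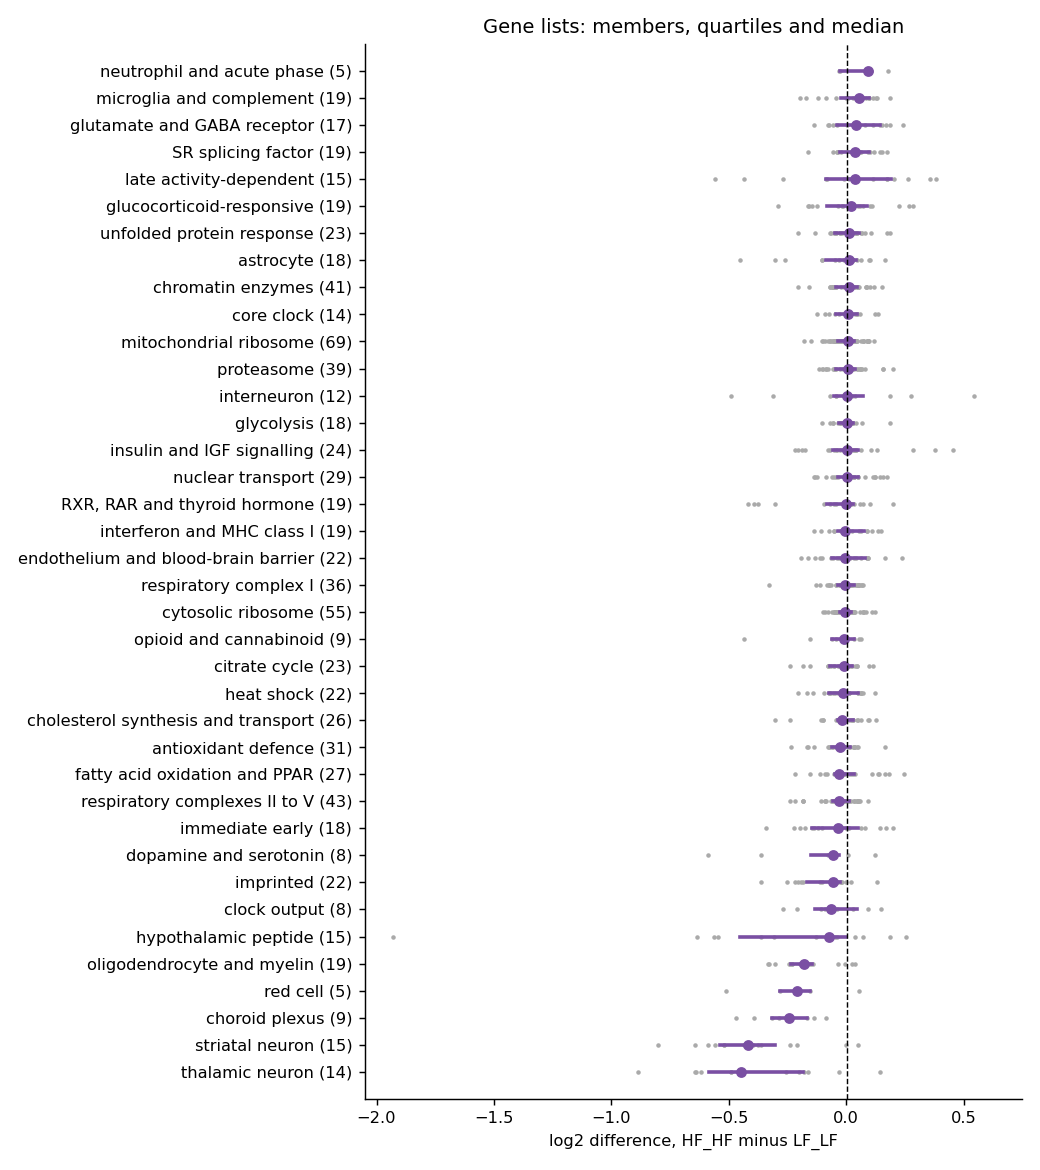
Log2 difference between HF_HF and LF_LF for the measured members of 38 gene lists (grey points), with their quartiles (bar) and median (purple point). Numbers in brackets are the members measured, and the dashed line is the median over 9945 genes. The thalamic (-0.45), striatal (-0.42), choroid plexus (-0.24), red cell (-0.21) and oligodendrocyte (-0.18) medians lie to the left, and the other 33 are under 0.1 in size.

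Of the 18 lower probes past 1.5-fold, 10 belonged to the thalamic (4), striatal (3), hypothalamic (2) and dopamine and serotonin (1) lists already described, and 8 to none of the 38 lists. The genes of these 8 probes, given below, were named after their values were seen. Rem2, a GTPase that limits calcium channels in neurons, measured 7.73 to 9.15 (median 8.26) in HF_HF and 8.09 to 9.26 (median 9.00) in LF_LF. It had the smallest p of the 18 lower probes (difference -0.59, SE 0.18, unadjusted p = 0.00315), with 9 of 10 HF_HF animals below the LF_LF mean. Igsf1, a membrane glycoprotein whose loss causes central hypothyroidism in humans, differed by -0.80 (SE 0.28, unadjusted p = 0.00962) and -0.72 (SE 0.28) at its pair of probes. Isl1, a transcription factor of striatal and hypothalamic neurons, differed by -0.78 (SE 0.36), Slc10a4, a vesicular protein of cholinergic and aminergic neurons, by -0.72 (SE 0.26) and Ido1, which degrades tryptophan, by -0.84 (SE 0.42). Zic1 differed by -0.62 (SE 0.47) and Syndig1l by -0.60 (SE 0.29). Each of these genes overlapped between the groups, and the part of brain region in their differences was not tested.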

How the data were processed

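Whole-brain RNA of 40 animals was hybridised to Illumina MouseRef-8 v2.0 arrays, and 20 arrays were compared here. The authors deposited linear fluorescence intensities, quantile-normalised over 40 samples. The submitters' processing notes name BeadStudio, without a version. Sorted columns differed by at most 1.1. Of 25697 probes 23978 had 1 gene symbol in the array annotation, 1719 none and 0 several. Intensities were log2-transformed with no offset and ran from 48.4 to 30357.2. Background was the 95th percentile of 1341 olfactory, vomeronasal and taste receptor probes in each array (81.6 to 90.9). The 14381 probes above it in at least 20 of 40 arrays were kept (13536 with a symbol, 9945 genes). No pair of arrays held identical values. Arrays have no read depth, and their number limits the precision.

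HF_HF and LF_LF were compared in limma 3.58.1 (R 4.3.3) with a mean-variance trend and Benjamini-Hochberg adjustment over all kept probes at 0.05. The fit was tested on simulated data. As fewer than 10 probes were called, the genes named were the 10 higher and 10 lower with the smallest p, up to 3 members with the smallest p of each of 38 hand-compiled lists, and 10 set genes (Cebpb, Nr1d1, Pparg, Srebf1, Msmo1, Lss and the peptides Cartpt, Npy, Pmch and Hcrt). Further list members (such as Drd1, Rgs9, Gnal and Nptx2) and Cbln1 were picked after their values were seen. Lists used 1 probe per gene (the highest mean) and were described by counts and medians, with no test. The members and lists were chosen with earlier results of these data known. Body measures from the labels were compared by permutation (100000 resamples, all splits for length) in scipy 1.17.1 (Python 3.11.15). HF_HF replicates 3 and 4 had no length. Replicates were numbered in accession order. Alternatives covered scaling (median centring or cyclic loess), an added 50 units before log2, the filter, array weights, cage (random block, means, each left out), 3 arrays standing apart (mean correlation over 3 median absolute deviations below the median), 1 model of 40 arrays, the first principal component as a covariate, a regularised t-test (101 probes of similar level, prior weight 10, after the authors' method) and a plain t-test.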

Additional observations from a re-analysis of the deposited data

Results flagged for a closer look

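Of 350 groups of values examined, 19 held an animal far from the rest of its group, and chance flags about 1 in 20 groups. In LF_LF, replicate 9 of cage 11 was high for Map3k6 (7.574, others 7.087 to 7.305) and Bdnf (9.614, others up to 9.318) and low for Slc32a1 (11.54, others from 12.03), Clic6 (6.839, others from 8.43) and the RXR, RAR and thyroid hormone list (8.027, others from 8.267). Replicate 7 was high for S100a8 (8.572) and S100a9 (7.256). Replicate 5 was low for Psme4 (9.125) and Gria2 (11.61), replicate 3 high for Egr2 (8.871), and replicate 6 low for the clock output list (9.592). In HF_HF, replicate 6 of cage 20 was high for Cartpt (10.13, others up to 8.872), Usp29 (9.466) and Ndn (12.8) and low for Bdnf (8.772, others from 9.304). Replicate 9 was high for Dbp (11.96, others up to 11.63), replicate 10 high for Alas2 (7.479) and low for Pnoc (5.952), and replicate 5 low for Ciart (7.835). All values are log2 intensities.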

How the results depend on the processing

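Called probes numbered 0 under all 21 alternatives, and no named gene passed under any. The 527 probes at an unadjusted p under 0.05 became 862 with no filter on dim probes, 1124 with array weights, 1224 with the first principal component as covariate and 203 with the regularised t-test, and ran from 262 (without cage 8) to 954 (without cage 11) when each cage was left out. The share of these that were higher in HF_HF, 291 of 527 with the settings of the report, was 35.7% with cage means, 45% without the arrays that stand apart and 48.2% with cyclic loess, and ran from 37.2% (without cage 4) to 67.7% (without cage 11). Signs turned for S100a8 (-0.158 with array weights, -0.00648 without the arrays that stand apart), S100a9 (-0.053 with array weights), and, over cages left out, for Lss (-0.119 to 0.0013, the latter without cage 20), Msmo1 (-0.0165, without cage 20, to 0.0991) and Srebf1 (-0.0843 to 0.00653, the latter without cage 4). With whole cages permuted the 3-week weight (1.87 g), second weight (5.59 g) and length (2.54 mm) each missed the threshold (exact adjusted p = 0.0762), and with any cage left out they kept their side of it. Of the 38 list medians, 15 kept their sign in all 19 alternatives, and the 23 that did not were at most 0.0912 in size. Leaving out at least 1 cage moved 59 of the 133 named genes' differences by over 1.5 times. The cause of these changes was not tested. The correlation within cages was -0.0323. No paired analysis was possible because replicate numbers only follow accession order and the groups share no cage.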
